A study of Mus musculus with 6 samples.

Results

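*Zbp1*, *Ripk1*, *Ripk3*, *Mlkl*, *Casp8*, *Fadd* and *Cflar* encode the core of the necroptosis machinery and its brake. These 7 genes were chosen by symbol among the 59485 genes of the expression table, each was found once, and all 7 were among the 25802 genes tested. RNA-seq was performed on sciatic nerves of P4 mice, with 3 control libraries labelled wild-type and 3 mutant libraries labelled Ht-PA-Cre; Adar1fl/fl;R26R. In the mutants, Cre is driven by the human tissue plasminogen activator promoter, so the floxed *Adar* alleles are removed in neural crest (NC) cells and their progeny, among them the Schwann cells (SCs), and R26R is a reporter of these cells. The study's methods describe wild-type animals as carrying floxed alleles and R26R without Cre, and the labels of these controls say only wild-type. Endothelial cells and macrophages of the nerve are not of NC origin, so each value is a sum over cells with and without the Cre target. The 3 animals of a genotype are independent samples.

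ZBP1 is a sensor of left-handed (Z-form) nucleic acid, and ADAR1 is the editing enzyme that shares its Z-binding domain type. On binding its ligand, ZBP1 joins the kinase RIPK3 through RHIM motifs, short segments that stack into amyloid-like fibers and that RIPK1 also carries. RIPK3 then phosphorylates MLKL, which opens the plasma membrane, and the cell dies by necroptosis. Caspase-8, held on the adaptor FADD together with cFLIP (the product of *Cflar*), cleaves RIPK1 and RIPK3 and so restrains this route, whereas caspase-8 dimers without cFLIP drive apoptosis. *Zbp1* and *Mlkl* are known interferon-stimulated genes (ISGs).

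The promoter sequences of these genes are shown because a shared change in RNA level raises the question of whether ISG-type elements lie next to their starts. RefSeq (GRCm38.p6) promoters were at hand for 6 of the 7 genes, all but *Zbp1*, and *Ripk1* had a pair of them. In the 250 bases before each start, the interferon response core GAAANNGAA was searched on both strands, and so was the gamma-activated site TTCNNNGAA, which reads the same on both. The response core was found in 0 of the 7 promoters of these genes, beside 7.13% of the 32851 promoters in the RefSeq table. The gamma-activated site was found in 1 of the 7, beside 7.02% of all promoters. The *Mlkl* window (chr8:111338206-111338455, minus strand) lies directly before the gene. For this promoter alone among the 7, bases shortly after the start were not found in annotated transcripts of the gene. The *Casp8* window (chr1:58802252-58802501, plus strand) lies inside the gene, outside its annotated exons, before an internal start. Both windows belong to the members with the strongest rises among the 6. They are given in lower case throughout because neither element occurs in them.
Mlkl promoter: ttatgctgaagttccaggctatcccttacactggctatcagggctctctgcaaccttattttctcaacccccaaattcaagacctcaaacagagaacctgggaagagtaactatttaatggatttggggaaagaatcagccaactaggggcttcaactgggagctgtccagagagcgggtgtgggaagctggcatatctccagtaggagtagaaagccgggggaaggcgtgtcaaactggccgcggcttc
Casp8 promoter: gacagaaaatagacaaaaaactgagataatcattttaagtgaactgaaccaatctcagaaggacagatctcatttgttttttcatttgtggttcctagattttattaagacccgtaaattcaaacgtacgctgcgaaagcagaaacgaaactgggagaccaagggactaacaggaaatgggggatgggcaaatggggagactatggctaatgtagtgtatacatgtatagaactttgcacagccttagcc
The other stretch shown holds the match nearest to a start, in the second *Ripk1* promoter (chr13:34002844-34002873, plus strand, inside the gene and outside its exons), with the 9 bases of the gamma-activated site in capitals.
Ripk1 promoter, last 30 bases: gcgggcgggacttcaaacgTTCCCGGAAat
This match spans bases 11 to 3 before the start, and the other one in the same promoter spans bases 108 to 100. A match is a likeness of letters, and the lack of one says only that these letters were not in the window.

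From 50938349 to 78250094 reads of a library lay on genes. The values below are the deposited normalized read counts, that is, reads on the constitutive regions of a gene divided by a size factor per library. The lengths of these regions were not at hand, so levels were not compared between genes. The RNA of the targeted gene *Adar* was 1602, 2066 and 1133 in control replicates 1, 2 and 3 and 11770, 9311 and 9773 in the mutant-labelled replicates. It was thus higher where the label names a deletion. The table holds 1 value for each gene, so the deleted segment could not be told from the rest. Control replicate 2 stood above the other controls in ISGs, with an *Irf7* value of 1947 against 491.9 and 204. Among cell type markers, the summed SC markers were 1156000 to 1529000 in controls and 65480 to 227200 in mutants, with 4 of 8 markers lower by the 2-fold rule and 7 of 8 by adjusted p. The SC factor *Sox10* had 12620, 11720 and 10920 in controls and 9171, 5838 and 6828 in mutants (log2 fold change -0.71, adjusted p = 0.00874). Summed fibroblast markers were 2492000 to 2894000 in controls and 1015000 to 1490000 in mutants, without overlap, with 3 of 6 lower by the 2-fold rule. Summed skeletal muscle markers ranged from 7725 to 37560 in controls and from 49860 to 351100 in mutants, highest in mutant replicate 3, and summed erythroid markers from 55080 to 77130 and from 5151 to 15730. Summed endothelial markers ranged from 13320 to 20400 and from 19690 to 25980, with 3 of 7 higher by adjusted p, and summed adipocyte markers reached 23390 in mutant replicate 2 against 3177 and 4331 in the other mutants. The part of these differences in the results was not tested, and in a whole nerve fewer cells of a type and less RNA per cell cannot be told apart.

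The question for the necroptosis genes was which of them differed in RNA level between mutant and control nerves. *Zbp1*, *Mlkl*, *Casp8*, *Cflar*, *Ripk3* and *Ripk1* rose and *Fadd* did not pass the test. Values were tested as log2(value + 1) by limma's moderated test, and the first rule asks for a p no higher than 0.05 together with a 2-fold or larger change, the limits in the study's methods, applied here to p-values without adjustment because the methods do not name one. By this rule 6 of the 7 genes were higher and 0 lower, where 13.9% of all tested genes were higher and 10.4% lower. With a Benjamini-Hochberg adjusted p at or under 0.05 at any size, again 6 of the 7 were higher and 0 lower, against a background of 19% higher and 16% lower. In all 7 genes each mutant value was above each control value, which held for 25.9% of tested genes. The median log2 fold change was 1.35 over the 7 genes and 0.03 over all tested genes. These shares depend on the scaling: with libraries brought to the same total, 6331 genes were higher and 3104 lower by adjusted p, instead of 4906 and 4134, and the median of all tested genes moved to 0.20.

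**Figure D1:**
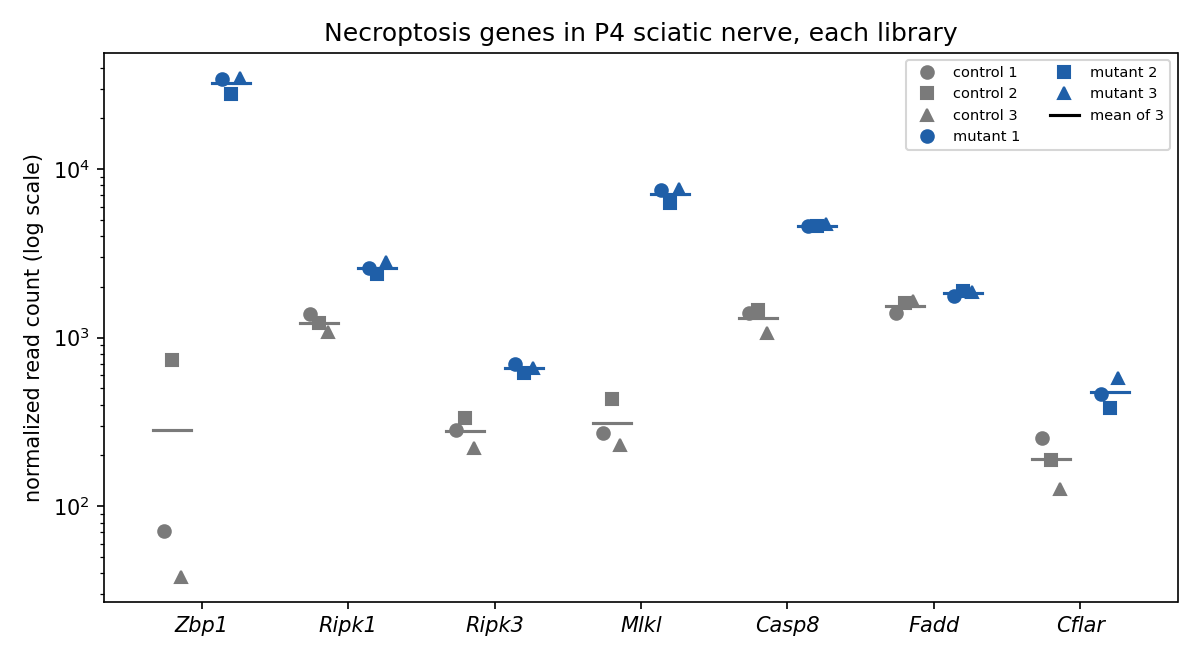
Normalized read counts (vertical log axis) of the 7 necroptosis genes in each of the 6 libraries, with gray symbols for controls, blue symbols for mutants and bars for the means of 3. All mutant symbols of a gene lie above its control symbols, *Zbp1* is widest apart, and its control replicate 2 (741.7) stands above the other controls.

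The sensor *Zbp1* (GSMG0023966, mm10 chromosome 2, 173206612 to 173218922, minus strand) showed the strongest change of the group. Its normalized read counts were 71.07, 741.7 and 38.02 in control replicates 1, 2 and 3, and 34310, 27930 and 34760 in mutant replicates 1, 2 and 3. The mutant values lay close together, whereas control replicate 2 was 13.6 times the mean of the other controls. The means were 283.6 ± 397.1 (SD, n = 3) and 32340 ± 3820 (SD, n = 3), a ratio of 114. The log2 fold change was 7.98 (SE 0.90, 95% confidence interval 5.91 to 10.04, adjusted p = 0.000312), the 16th highest of all tested genes. Its size depended on single libraries and on the test. It was 9.25 without control replicate 2, 7.12 without control replicate 3, and 6.83 with edgeR on the recovered reads.

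The kinases rose less. *Ripk1* (GSMG0009625, chromosome 13, 34002361 to 34035170, plus strand), whose product is both a scaffold of inflammatory signaling and a death kinase, had values of 1387, 1226 and 1076 in controls and 2584, 2402 and 2814 in mutants. Both groups were compact, and they did not overlap. The log2 fold change was 1.08 (SE 0.13, 95% confidence interval 0.79 to 1.38, adjusted p = 0.000388), and without control replicate 3 it was 0.99, just under 2-fold. *Ripk3* (GSMG0012433, chromosome 14, 55784996 to 55788857, minus strand), the kinase of MLKL, had values of 283.2, 331.7 and 220.5 in controls and 693.9, 613.6 and 662.7 in mutants. The lowest mutant value was thus well above the highest control value. Its log2 fold change was 1.25 (SE 0.19, 95% confidence interval 0.82 to 1.69, adjusted p = 0.00146).

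*Mlkl* (GSMG0038929, chromosome 8, 111311797 to 111338205, minus strand), the executor, had values of 272.1, 434.7 and 231.9 in controls and 7507, 6308 and 7673 in mutants. Control replicate 2 was again the highest control, at 1.72 times the mean of the other controls. The means were 312.9 ± 107.4 (SD, n = 3) and 7163 ± 745 (SD, n = 3), a ratio of 22.9, and the log2 fold change was 4.56 (SE 0.22, 95% confidence interval 4.06 to 5.06, adjusted p = 5.45e-06). Its interval was narrower than that of *Zbp1*.

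Of the genes of the brake, *Casp8* and *Cflar* rose and *Fadd* did not pass. *Casp8* (GSMG0000294, chromosome 1, 58795374 to 58847503, plus strand), the protease, had values of 1398, 1460 and 1062 in controls and 4581, 4611 and 4696 in mutants. The mutant values varied by a coefficient of 1.29%. The log2 fold change was 1.84 (SE 0.13, 95% confidence interval 1.53 to 2.14, adjusted p = 3.37e-05). *Cflar* (GSMG0000292, chromosome 1, 58711491 to 58758884, plus strand), the catalytically inactive partner of caspase-8, had values of 254.3, 189 and 126.7 in controls and 462.6, 384 and 573.7 in mutants. Its groups did not overlap, but its libraries were more scattered, and the log2 fold change was 1.35 (SE 0.29, 95% confidence interval 0.69 to 2.01, adjusted p = 0.00732). *Fadd* (GSMG0036930, chromosome 7, 144578323 to 144582465, minus strand), the adaptor that links death receptors to caspase-8, had values of 1407, 1597 and 1642 in controls and 1778, 1889 and 1870 in mutants. The difference was a log2 fold change of 0.26 (SE 0.11, 95% confidence interval 0.01 to 0.50, adjusted p = 0.102), and a 2-fold change lay outside its interval. With libraries brought to the same total it was 0.42 (adjusted p = 0.0133), beside the shift of all genes to 0.20 given above.

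**Figure D2:**
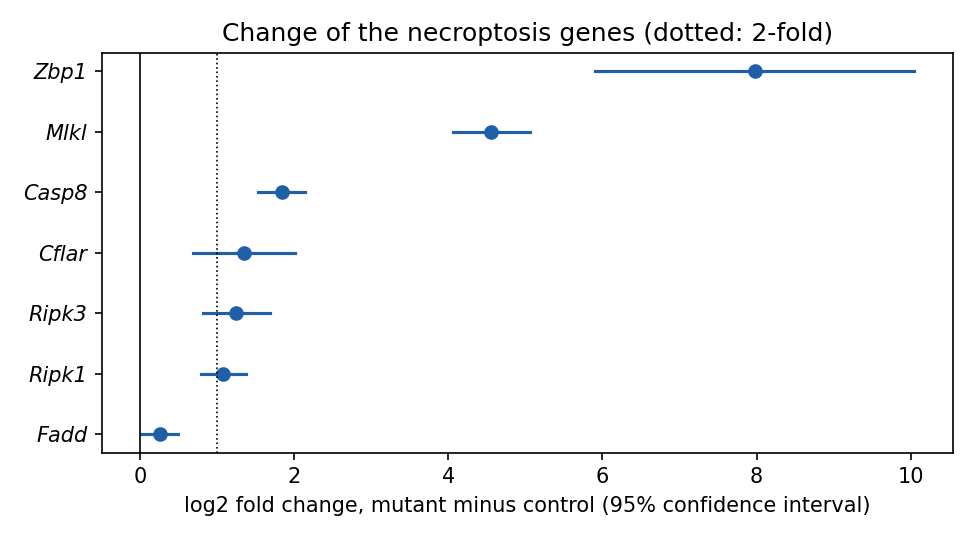
Log2 fold change (mutant minus control, horizontal axis) of each of the 7 genes, with a point for the estimate and a line for its 95% confidence interval from limma. The order runs from *Zbp1* (7.98) over *Mlkl* (4.56), *Casp8*, *Cflar*, *Ripk3* and *Ripk1* to *Fadd* (0.26), and the dotted line marks a 2-fold change.

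Whether the genes changed unequally was asked with 6 ratios taken within each library, in which size factors cancel. The level of a ratio depends on the lengths of both genes, but its change does not. The log2 ratio of *Mlkl* to *Casp8*, executor against protease, was -2.36, -1.75 and -2.19 in controls and 0.71, 0.45 and 0.71 in mutants. It was higher in each mutant than in each control, by 2.72 in the mean (6.60-fold). The log2 ratio of *Mlkl* to *Ripk3*, substrate against kinase, was -0.06, 0.39 and 0.07 in controls and 3.43, 3.36 and 3.53 in mutants, a difference of 3.31 (9.90-fold). For each of these ratios the exact two-sided permutation p was 0.1, the smallest that 3 animals against 3 allow, and 0.15 after Benjamini-Hochberg adjustment over the 6 ratios.

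*Fadd*, *Ripk3* and *Cflar* were also set against *Casp8*. The log2 ratio of *Fadd* to *Casp8* was 0.01, 0.13 and 0.63 in controls and -1.36, -1.29 and -1.33 in mutants, a difference of -1.58 without overlap (exact permutation p = 0.1, adjusted 0.15). The log2 ratio of *Ripk3* to *Casp8* was -2.30, -2.13 and -2.26 in controls and -2.72, -2.91 and -2.82 in mutants, a difference of -0.58 without overlap, at the same p. The ratio of *Cflar* to *Casp8* overlapped between groups, with a difference of -0.49 (exact permutation p = 0.2, adjusted 0.24). The ratio of *Ripk3* to *Ripk1*, the RHIM kinases, overlapped too, with values of -2.29, -1.88 and -2.28 in controls and -1.90, -1.97 and -2.08 in mutants (difference 0.17, exact permutation p = 0.4, adjusted 0.4). None of the 6 ratios could pass a threshold of 0.05 in this design.

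**Figure D3:**
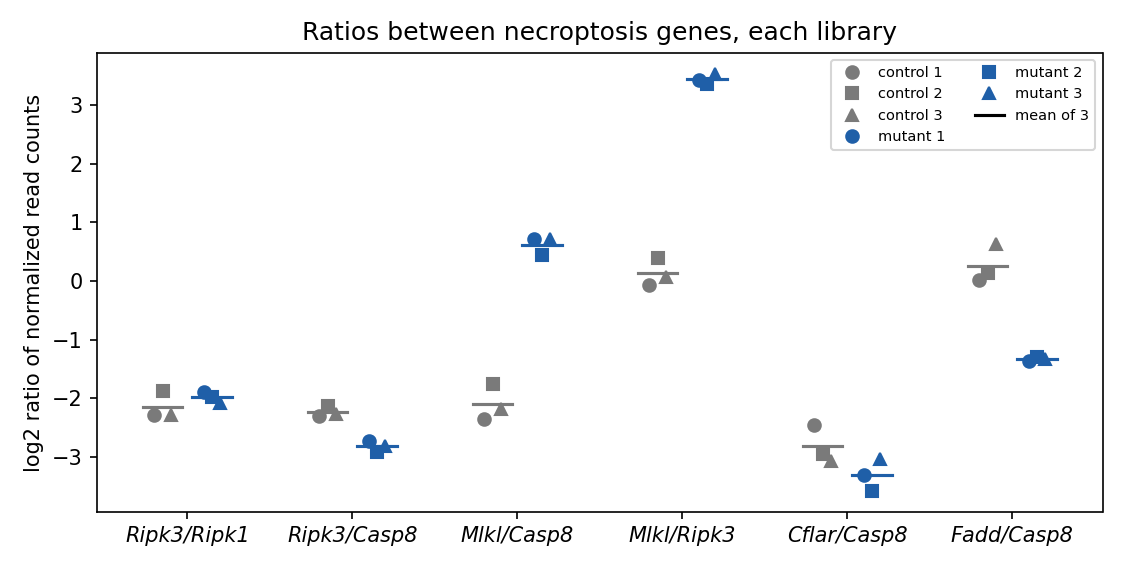
Log2 ratios between pairs of necroptosis genes (vertical axis) in each of the 6 libraries, gray for controls, blue for mutants, bars for means of 3; the height of a ratio depends on gene lengths, so the gap between colors is what can be read. *Mlkl*/*Casp8* and *Mlkl*/*Ripk3* are higher in all mutants, *Fadd*/*Casp8* and *Ripk3*/*Casp8* lower, and the remaining pair of ratios overlap.

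Likeness of profile was measured as the root mean square difference of log2 values, each centered on its own mean, over the 6 libraries and 16648 named genes. It is a description over 6 libraries in which genotype is the main difference. The genes most like *Zbp1* were *Ifit3* (difference 0.248), *Ifit3b* and *Ifit1*, RNA-binding ISGs with log2 fold changes of 7.66, 8.05 and 7.88. *Mlkl* was most like *Xdh* (0.151), the gene of xanthine dehydrogenase, and the class I histocompatibility genes *H2-T22* and *H2-Q4*. The latter pair belongs to a family of near-identical genes, whose reads the counting may split. *Casp8* was most like *Axl* (0.066), a receptor tyrosine kinase with a log2 fold change of 1.91, then *2810474O19Rik* and *Plin2*. *Ripk3* was most like *Vwa5a*, *Klf5* and *Stat3*, *Ripk1* like *Eef1e1* (0.04), *Zfp51* and *Pdpn*, *Cflar* like *Dpp4*, *Sema3c* and *Ubxn7*, and *Fadd* like *Rbm8a*, *Pkm* and *Tbl1xr1*.

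Neighbors and overlapping genes were examined because reads can be shared between them. *Zbp1*, *Mlkl* and *Cflar* overlapped no other gene of the table. *Ripk1* overlaps *Serpinb6a* on the opposite strand, whose log2 fold change was 0.11. *Ripk3* overlaps the unnamed gene GSMG0066222 on the opposite strand, with values of 26.65 to 35.48 in controls and 59.65 to 99.38 in mutants, and *Casp8* holds the unnamed GSMG0000295 on its own strand, with 5.069 to 43.47 and 67.65 to 113.7. Both moved the same way as their host and passed the 2-fold rule, at adjusted p-values of 0.0517 and 0.0842. The libraries were oriented, but whether the counting used strand is not given in the sources used here. *Fadd* overlaps 2 opposite-strand genes that were too low to be tested.

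Within 100 kb of *Zbp1* lay 9 other genes, of which 7 were tested and 2 were higher by the 2-fold rule. The first was *Pmepa1*, a regulator of TGF-beta signaling, with 6627, 5654 and 6323 in controls and 16780, 23340 and 14580 in mutants (log2 fold change 1.53, adjusted p = 0.000243). The other was the unnamed GSMG0022246, with 2.221, 0 and 0 in controls and 4.364, 37.63 and 13.85 in mutants, so that only its mutant values brought it past the filter on low values, and its call supports nothing. *Pck1* and *Ctcfl*, other genes of the window, did not pass. *Cflar* and *Casp8* lie on 1 strand with 36489 bases between them. Of the 4 other genes within 100 kb of this pair, 3 were tested, and beside the one inside *Casp8*, *Trak2* had a log2 fold change of 0.09 and *Gm20257* of 0.82.

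The pathway around the 7 genes was followed in 7 lists of 103 other genes, 102 of them tested. By the 2-fold rule 28 were higher and 1 lower, and by adjusted p 49 were higher and 7 lower, with a median log2 fold change of 0.30. The shares over all tested genes, against which these counts and those of each list are read, are the 13.9% higher and 10.4% lower by the 2-fold rule and the 19% and 16% by adjusted p given above. The ubiquitin regulators (1 of 9 higher by the 2-fold rule), the apoptosis genes (2 of 13) and the MLKL modifiers (3 of 30) were near or under that share. The count lower by adjusted p depended on single libraries, on scaling and on the filter, being 3 with libraries brought to the same total, 14 with the same 75th percentile, 11 with a minimum mean of 50, 4 without control replicate 2, 3 without control replicate 3 and 3 without mutant replicate 3, and the count lower by the 2-fold rule was 2 without control replicate 1 and 2 without mutant replicate 2. The lists were chosen with earlier results of these data known, so their counts describe them.

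Sensors and RHIM adaptors that can feed the same pathway were mostly higher. Of 9 genes, 7 were higher by the 2-fold rule and 8 by adjusted p, none was lower, and the median log2 fold change was 2.72. This list includes the targeted gene *Adar*, an editing enzyme and not a sensor or adaptor, whose own log2 fold change is that median. Without *Adar*, an alternative chosen after seeing the data, 6 of 8 were higher by the 2-fold rule and 7 by adjusted p, with a median of 2.37. *Ifih1*, which encodes the double-stranded RNA sensor MDA5, had values of 503, 913.7 and 259.8 in controls and 28420, 21950 and 26730 in mutants (log2 fold change 5.69, adjusted p = 2.24e-05). *Rigi* rose by 4.42, and *Tlr3*, the endosomal sensor of double-stranded RNA, by 4.04 on the log2 scale. *Tlr3* values were 382, 450.7 and 349.7 in controls and 7437, 5128 and 7069 in mutants, without overlap. *Ticam1*, the RHIM adaptor of TLR3, rose by 0.61 (adjusted p = 0.032). *Mavs*, the mitochondrial adaptor of MDA5, had a log2 fold change of -0.20 (adjusted p = 0.241).

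Complex I at the TNF receptor, where ubiquitinated RIPK1 signals survival, had 6 of 22 genes higher by the 2-fold rule, 14 by adjusted p and none lower, with a median of 0.64. The ligand *Tnf* had 37.76, 92.6 and 53.22 in controls and 186.9, 219 and 230.5 in mutants (log2 fold change 1.87, adjusted p = 0.00521). Its receptor *Tnfrsf1a* rose by 1.5, the adaptor *Traf5* by 2.05 and the ubiquitin ligase *Birc3* by 2.43 (adjusted p = 3.6e-05) on the log2 scale. *Birc3* had 601.9, 454.5 and 377.6 in controls and 2772, 2410 and 2424 in mutants. At the other end, *Map3k7*, *Sharpin* and *Rbck1*, which encode TAK1 and parts of the linear ubiquitin ligase, had log2 fold changes of -0.05, -0.04 and 0.04. *Rnf31*, which encodes another part of this ligase, rose by 0.95 (adjusted p = 0.00171).

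The list of deubiquitinases and ubiquitin-linked regulators of RIPK1 holds both inhibitors and, as *Cyld* and its partner *Spata2*, genes whose products remove the chains that restrain RIPK1. Of its 9 genes, 1 was higher by the 2-fold rule and 3 by adjusted p, and the median was 0.07. *Tnfaip3* (A20), an ubiquitin-editing inhibitor, had 418.6, 549.9 and 539.8 in controls and 2240, 1821 and 1985 in mutants (log2 fold change 2.01, adjusted p = 4.24e-05). *Tnip1*, which binds A20, rose by 0.80 and the deubiquitinase *Cyld* by 0.65 (adjusted p = 0.0169). *Tax1bp1*, *Stub1* and *Spata2* had values of -0.17, -0.13 and -0.11 and did not pass.

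Of 13 apoptosis genes downstream of caspase-8, 2 were higher by the 2-fold rule, 4 were higher and 2 lower by adjusted p, and the median log2 fold change was -0.18. With a library left out, this median ranged from -0.28 to -0.05. *Bid*, the BH3-only protein cut by caspase-8, had 203.2, 147.4 and 117.9 in controls and 1229, 1097 and 1181 in mutants (log2 fold change 2.93, adjusted p = 3.8e-05). *Casp6* fell by 0.99 and the initiator *Casp9* by 0.73 on the log2 scale (adjusted p = 0.000799 and 0.0125).

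The genes that modify MLKL or repair the membrane after it had a median of 0.00. Of 30, 3 were higher by the 2-fold rule, 7 were higher and 3 lower by adjusted p. *Axl*, one of the kinases that phosphorylate MLKL, had 21120, 21390 and 17540 in controls and 72600, 73300 and 78290 in mutants. The related kinases *Tyro3* and *Mertk* had log2 fold changes of -0.11 and 0.05 and did not pass. The chaperone *Hsp90aa1* rose by 1.01. *Chmp4c* rose by 1.5 from low values of 31.18 to 48.86. *Chmp4b*, a core ESCRT-III subunit of membrane repair, rose by 0.64 (adjusted p = 0.000811), and *Ninj1*, which ruptures the membrane late in lytic death, by 0.68 (adjusted p = 0.00407). The inositol phosphate kinases *Ipmk* and *Itpk1*, whose products activate MLKL, fell by 0.39 and by 0.40 (adjusted p = 0.0235 and 0.0367).

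Death receptors and their ligands had 4 of 6 tested genes higher and 1 lower by either rule, with a median of 2.46. *Fasl* was too low to be tested. The receptor *Fas* had 95.5, 96.38 and 115.3 in controls and 669.2, 831.7 and 824.9 in mutants (log2 fold change 2.91, adjusted p = 2.41e-05). *Tnfsf10* (TRAIL) rose by 3.16 and its receptor *Tnfrsf10b* by 2.0. *Tnfsf15* had 6.663, 22.68 and 0 in controls and 104.7, 65.61 and 144.4 in mutants, and its control mean lay under the filter on low values. Without it, an alternative chosen after seeing the data, 3 of 5 genes were higher and 1 lower by either rule, with a median of 2.0. Its receptor *Tnfrsf25* fell by 1.82 (adjusted p = 0.00474). That receptor had 868.4, 498 and 651.3 in controls and between 115.7 and 298.1 in mutants.

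In the interferon transcription axis, 5 of 13 genes were higher by the 2-fold rule, 9 were higher and 1 lower by adjusted p, and the median was 0.67. Among the 5 were *Stat2*, *Irf1*, *Irf7* and *Irf9*, transcription factors that interferon induces. *Irf7* had 491.9, 1947 and 204 in controls and 99340, 70930 and 75700 in mutants (log2 fold change 7.12, adjusted p = 0.000115). *Stat2* rose by 2.98, *Irf9* by 2.94 and *Irf1* by 2.75 on the log2 scale. *Irf1* and *Irf7* were highest among the controls in replicate 2, as were *Zbp1*, *Mlkl*, *Ripk3* and, by 1460 against 1398 in control replicate 1, *Casp8*. *Ripk1* and *Cflar* were instead highest in control replicate 1, and *Fadd* in control replicate 3. *Tyk2*, a receptor-bound kinase, fell by 0.57, and the receptor gene *Ifnar1* had a log2 fold change of -0.38 (adjusted p = 0.0655).

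**Figure D4:**
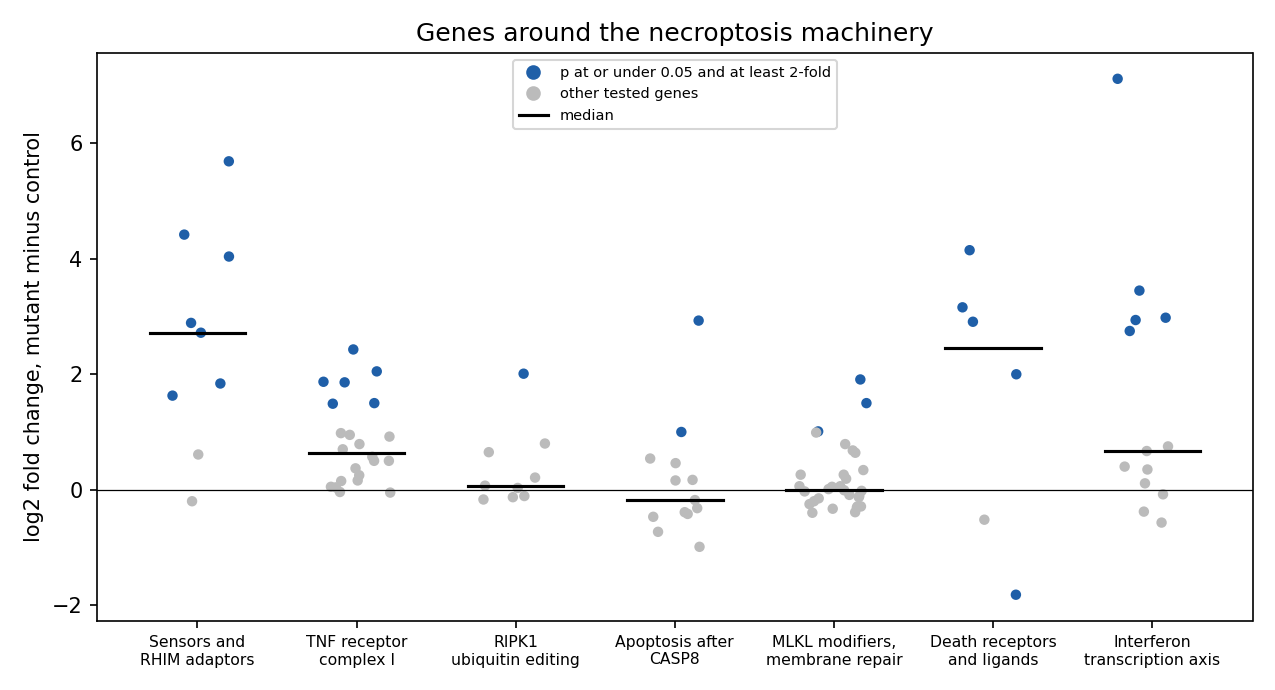
Log2 fold change (mutant minus control, vertical axis) of the 102 tested genes of the 7 lists around the necroptosis machinery, 1 point a gene, blue where the gene had a p at or under 0.05 and at least a 2-fold change, with a bar for the median of each list. Medians are highest for sensors and RHIM adaptors (2.72, the value of the targeted gene *Adar*, and 2.37 without it) and for death receptors (2.46, and 2.0 without *Tnfsf15*), and near 0 for the ubiquitin editors of RIPK1 and the MLKL modifiers.

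Since macrophages and lymphocytes express much of this machinery, their markers are given beside it. The summed levels of 16 macrophage markers overlapped, at 27900 to 34320 in controls and 28840 to 34060 in mutants, with markers moving both ways. By the 2-fold rule *Ptprc*, *Aif1* and *Fcgr1* rose, by 1.33, 1.04 and 1.58 on the log2 scale, and *Csf1r*, *Cx3cr1*, *Mrc1* and *Lyz2* fell, with log2 fold changes of -1.25, -1.83, -2.27 and -1.30. *Ptprc*, the pan-leukocyte marker, had 332, 377 and 244.6 in controls and 688.1, 992.8 and 710.2 in mutants, whereas the macrophage marker *Adgre1* had 457.5, 553.7 and 381.4, and 466.3, 312.6 and 448.1, and did not pass. The sum of 9 T, NK and B cell markers was 109 to 241 in controls and 383.8 to 508.5 in mutants. Of these, *Cd8a* and *Ncr1* were at 0 in all controls. The sum of 7 neutrophil markers was 29.29 to 176.1 and 152.3 to 572.5, with 1 of 5 tested higher. Their part in the necroptosis genes was not tested.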

How the data were processed

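Total RNA of sciatic nerves was made into oriented poly-A libraries and sequenced in paired ends, 1 library per animal. The authors mapped the reads to mm10 with STAR 2.4.0, counted them on constitutive regions of FAST DB genes and scaled these counts by DESeq2 size factors, and the normalized signal is what they deposited. Dividing by the value of 1 read gave whole reads for 100% of values (tolerance 1e-06 of the value), which edgeR and DESeq2 used as alternatives. Reads on genes ranged from 50938349 to 78250094 per library.

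The deposited signal was compared as log2(value + 1) with limma (lmFit, eBayes with trend), as mutant minus control, over the 25802 genes that reached a mean of 10 in at least 1 genotype. This scale understates changes of low genes. Calls followed a 2-fold rule with the limits of the study's methods, on unadjusted p-values, or a Benjamini-Hochberg adjusted p over all of them. Errors of means are SDs of 3 libraries, those of fold changes are standard errors and intervals from limma, and p-values measure the spread between these animals. Named were the 7 genes, up to 3 of the highest and lowest genes of each list, genes with a described role, the 3 most alike genes for each of the 7, overlapping genes and genes within 100 kb; the leukocyte and SC markers named were picked after their values were seen. Members and lists were chosen with earlier results of these data known. Replicate numbers come from the titles; same-numbered libraries stand for different animals and were not paired. Alternatives were pseudocounts, filters, scalings, eBayes without trend, edgeR, DESeq2, a replicate block and leaving out each library. The limma, edgeR and DESeq2 steps were tested on simulated data. Promoters came from RefSeq (GRCm38.p6), and protein sequences were not used here. The values of some single genes of the lists are not reported here. R 4.3.3, limma 3.58.1, edgeR 4.0.16, DESeq2 1.42.0, the data.table package (version 1.17.8), Python 3.11.15, numpy 2.4.6 and matplotlib 3.10.9 were used.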

Additional observations from a re-analysis of the deposited data

How the results depend on the processing

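Under each of 11 alternatives, and when any 1 of the 6 libraries was omitted, the 6 genes that rose kept their direction and an adjusted p at or under 0.05; *Ripk1* missed 2-fold (0.99) without control replicate 3, which left 5 genes past that rule. Log2 fold changes of *Zbp1* ranged from 6.83 to 9.25, of *Mlkl* from 4.37 to 4.82, of *Casp8* from 1.70 to 2.0 and of *Cflar* from 1.09 to 1.59. *Fadd* passed the adjusted rule with libraries brought to the same total (0.42). The ratios were computed under 5 of these alternatives and with each library omitted, and the directions of all 6 held.

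The number of pathway genes lower by adjusted p, 7 in the main test, was 11 with a minimum mean of 50, 3 at the same total, 14 at the same 75th percentile, 3 with eBayes without trend and 3 to 8 with a library left out. The number lower by the 2-fold rule, 1 in the main test, was 2 at the same 75th percentile and 1 to 2 with a library left out. At the same total, list medians were 0.23 for the ubiquitin regulators of RIPK1, -0.02 for apoptosis, 0.16 for the MLKL modifiers and 0.84 for the interferon axis. The causes were not tested.

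With a replicate block, 6 of the 7 genes were again higher by either rule, and 4 pathway genes were lower by adjusted p. Same-numbered libraries did not deviate together (correlations of -0.0619, -0.0555 and 0.00891, with 1 of 3 numbers correlating best with its own), so the numbers were not taken as pairs.

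The main limits are 3 animals per genotype, which sets the smallest permutation p at 0.1, and whole nerves, in which cell types cannot be separated. RNA levels say nothing of protein, phosphorylation or cell death.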
